A study of Mus musculus with 6 samples.

Results

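The muscle ubiquitin ligases and FoxO factors described here are 8 genes: the MuRF genes Trim63, Trim55 and Trim54, the F-box genes Fbxo32 and Fbxo30, and the transcription factor genes Foxo1, Foxo3 and Foxo4. They were found as the non-control probes whose RefSeq accession belongs to one of these genes, which gave 8 of the 20659 genes named on the array, with 12 of its 39429 probes and 21 of its 43020 non-control spots. The Fbxo32 probe was printed 10 times and every other member probe once. Trim63, Fbxo30, Foxo1 and Foxo4 each had a pair of probes, and Trim55, Trim54, Fbxo32 and Foxo3 had 1 each.

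RNA came from C2C12 cells, a mouse myoblast line that can fuse into myotubes in culture, on single-colour Agilent arrays. One group had been transfected with siRNA-MEG3, which targets the long non-coding transcript Meg3, and the other with siRNA-NC, a negative control, with 3 arrays per group that the labels call biological replicates. Both groups are the same line, kept in 10% serum and transfected at 70% to 80% confluence. The labels give the siRNA amount as "20 um" and no time between transfection and RNA extraction.

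MuRF proteins are RING-type E3 ligases, of which MuRF1, encoded by Trim63, binds titin in the sarcomere. Fbxo32 (atrogin-1, also MAFbx) and Fbxo30 (MUSA1) are the substrate-binding subunits of SCF ubiquitin ligases. Proteins marked by such ligases are broken down by the proteasome, and Trim63 and Fbxo32 are best known for their induction in wasting muscle. FoxO factors stand upstream: Akt phosphorylation keeps them out of the nucleus, and when it ceases they enter and switch on Fbxo32, Trim63 and autophagy genes. These cells were in serum-rich medium, while myogenin and the sarcomere genes are typical of muscle cells that have left the cell cycle.

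Several properties of the arrays bear on every value below. The deviations of repeat spots from their probe's mean were nearly the same on siRNA-MEG3 arrays 1 and 3 (r = 0.98 over 230 probes printed 10 times, against -0.147 to 0.543 for the other pairs), and siRNA-NC arrays 1 and 3 differed between probes no more than spots of 1 probe did (variance ratio 1.02, against 176.1 for siRNA-NC arrays 1 and 2). Each pair was averaged and counted as 1 sample, leaving 2 samples per group. By the same variance ratio siRNA-MEG3 array 2 was also close to arrays 1 and 3 (1.43 and 1.59, where arrays 1 and 3 had 2.10). That ratio is taken against spot deviations, which arrays 1 and 3 share. The log2 differences of probes had a standard deviation of 0.128 and 0.134 between array 2 and arrays 1 and 3. It was 0.0197 between arrays 1 and 3, and 0.563 between siRNA-NC arrays 1 and 2. Whether the siRNA-MEG3 samples are separate RNAs is thus not known. The p-values therefore reflect only how far these samples differ, which may be technical in part. The siRNA-NC arrays were scanned on 1 day and the siRNA-MEG3 arrays on other days, so scan and group cannot be told apart. On siRNA-MEG3 arrays 62.8% to 69.3% of spots were well above background, against 70.1% to 75.2% on siRNA-NC arrays. Before scaling, siRNA-NC array 2 was the brightest, with a 75th percentile of 2265.9 in processed signal, against 1167.8 to 1283.5 on the other arrays. None of the 3 probes of Meg3 was well above background on a siRNA-MEG3 array, and 1 was on 1 siRNA-NC array, so the knockdown itself was not measured. Of 9 markers of the skeletal muscle lineage, 8 were well above background on all arrays. None of 3 epithelial and none of 3 adipocyte markers was, while 1 haematopoietic marker (Csf1r), 1 endothelial marker (Pecam1) and 2 neural markers (Snap25 and Rbfox3) were. Summed scaled signals of the muscle markers were 87304 to 98677 on siRNA-MEG3 arrays, against 30875 to 32647 on siRNA-NC arrays. The largest part of these sums was Chrna1, at 43692 to 47108 on siRNA-MEG3 arrays and 15563 to 18069 on siRNA-NC arrays. Within that list Myf5 went the other way (log2 fold change -2.86, limma adjusted p = 0.0737). Des stood at -0.22 with overlapping groups (limma adjusted p = 0.889). The haematopoietic markers summed to 1124 to 1234 with siRNA-MEG3 and 647.9 to 791.8 with siRNA-NC, and the adipocyte markers to 22.7 to 39.3 with siRNA-MEG3 and 54.5 to 69.1 with siRNA-NC. The neural markers summed to 432.4 to 446.6 with siRNA-MEG3 and 914.5 to 1277 with siRNA-NC, mostly Snap25 (log2 fold change -1.65), while Rbfox3 and Gfap stood at 0.75 and 0.87. The part of these markers in the results below was not tested. In a bulk sample, fewer cells of a type and less RNA per cell cannot be told apart.

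None of the muscle ligase and FoxO genes passed the test between siRNA-MEG3 and siRNA-NC. Of the 12 probes, 7 were well above background on all 6 arrays and entered the fit, covering Trim63, Fbxo32, Fbxo30, Foxo1 and Foxo3. The other 5 probes, among them every probe of Trim55, Trim54 and Foxo4, were well above background throughout neither group and have signals only. In the limma fit 0 of the 7 probes were called higher and 0 lower at an adjusted p of 0.05, where 1.37% of 26348 probes were called (0.998% higher and 0.372% lower). At an unadjusted limma p under 0.05 there was 1 member probe, one of the Foxo1 pair, against 19.2% of all probes. That background moved with single arrays, most when siRNA-NC array 2 or siRNA-MEG3 array 2 was left out. Each of these refits left 1 sample in that group, assumed to vary like the other group, so their counts are not read as results. The member count stayed at 0 without any other single array. It was also 0 with 1 probe kept per gene, where limma called 1.52% of 22057 named genes and unnamed accessions.

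Most member probes nonetheless leaned one way. The log2 fold change was positive for 6 of the 7, and for 14120 of all 26348 probes. Its median was 0.44 for the members and 0.05 over all probes. The 6 include Fbxo32 at 0.003, whose sign reversed in 10 of 17 alternative settings. The 7 probes cover 5 genes, with both probes of Foxo1 and of Fbxo30 among them. For 5 of the 7 every siRNA-MEG3 array read above every siRNA-NC array, which 28.8% of all probes also did, while 18.4% had every siRNA-MEG3 array below and none of these 7 did. The signals below are processed signals brought to a common scale, on which the 75th percentile of every array equals 1359.4, and levels of different probes are not compared.

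**Figure D1:**
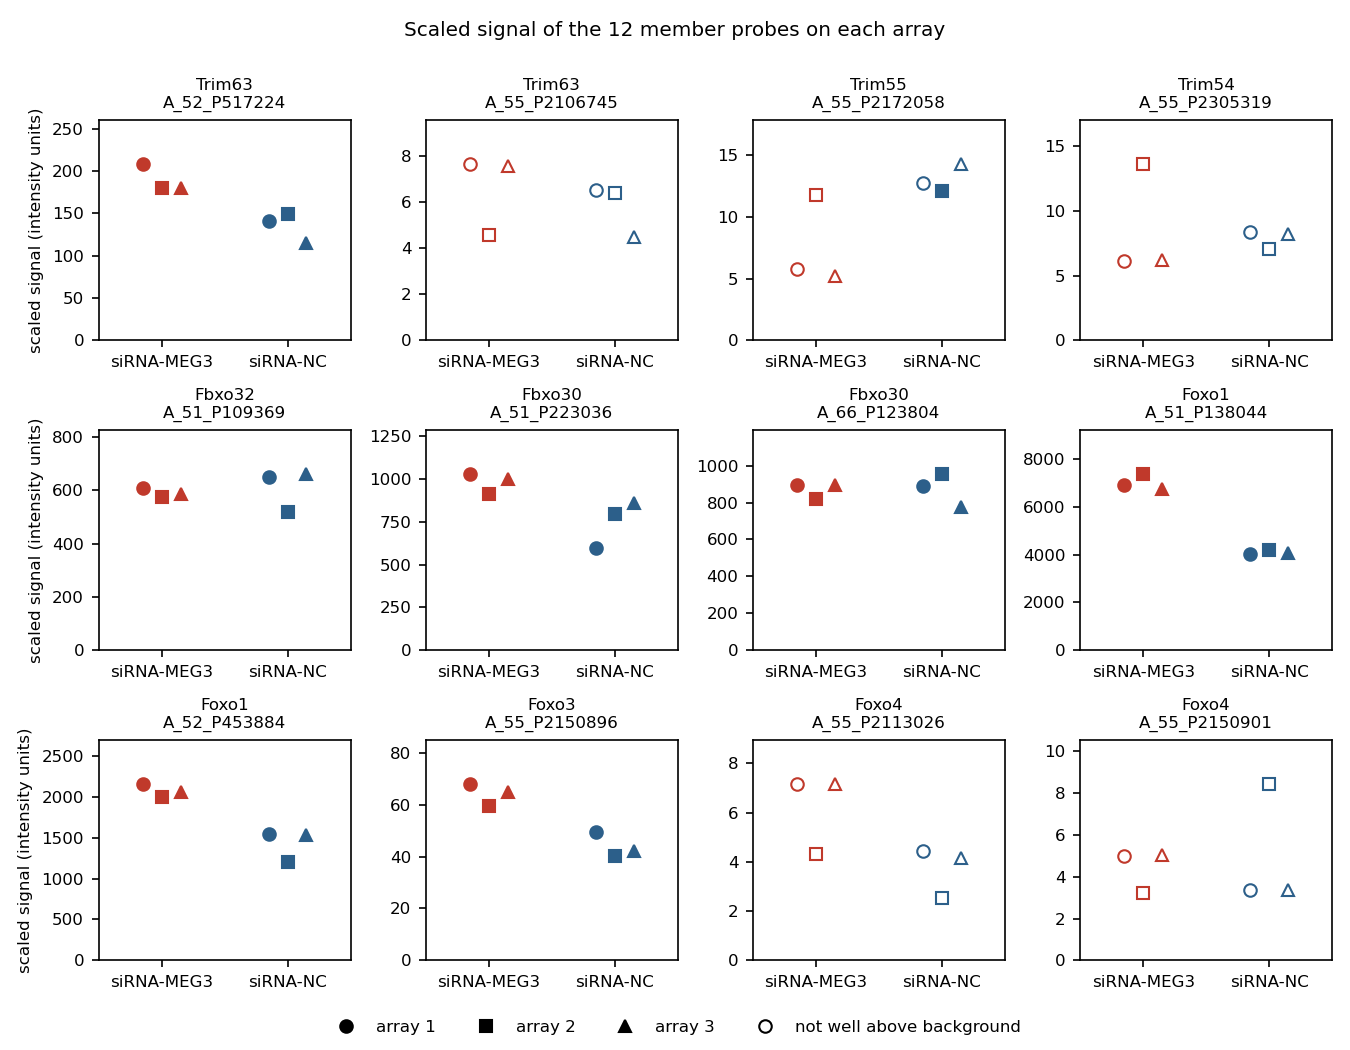
Scaled signal (intensity units, vertical axis from 0) of each of the 12 member probes, with the siRNA-MEG3 arrays in red on the left of each panel and the siRNA-NC arrays in blue on the right. Circles, squares and triangles are arrays 1, 2 and 3, and open symbols were not well above background. The groups stand apart for Trim63 (A_52_P517224), 1 of the Fbxo30 probes, both Foxo1 probes and Foxo3, with siRNA-MEG3 higher, and for Trim55, with siRNA-MEG3 lower and 1 of 6 arrays well above background. They overlap for Fbxo32.

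**Figure D2:**
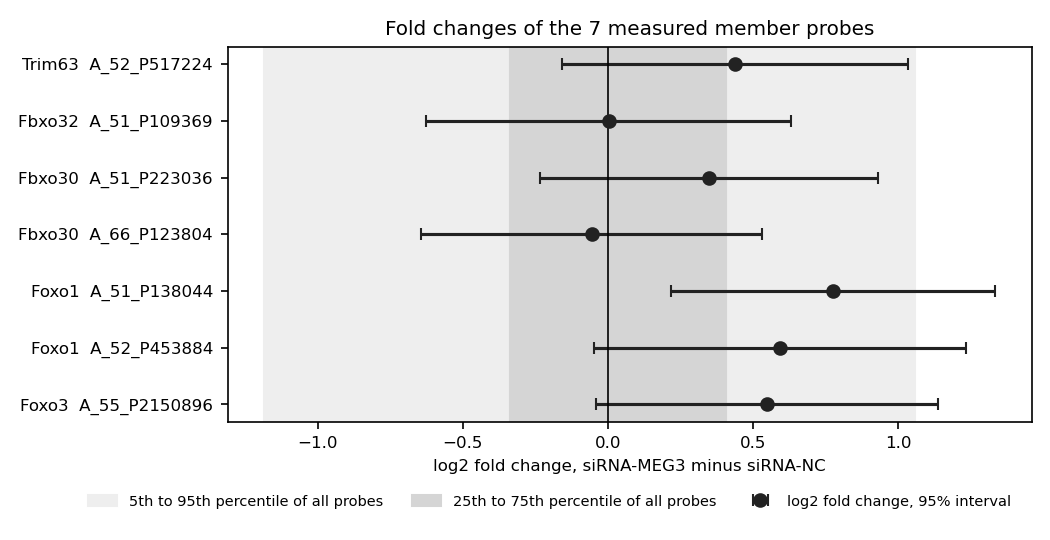
Log2 fold change (siRNA-MEG3 minus siRNA-NC) of the 7 measured member probes with its 95% confidence interval from limma, n = 2 samples per group. Grey bands hold the middle of all 26348 probes, between the 25th and 75th and between the 5th and 95th percentiles. The interval of 1 Foxo1 probe (A_51_P138044) lies above 0 and the other 6 intervals include 0.

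Trim63 encodes MuRF1, the ligase that ubiquitinates myosin and other thick filament proteins. Its measured probe (A_52_P517224) had scaled signals of 208.2, 180.3 and 179.4 on siRNA-MEG3 arrays 1 to 3, against 140.4, 149.6 and 114.8 on siRNA-NC arrays 1 to 3. Every siRNA-MEG3 array was above every siRNA-NC array. The group means were 186.7 and 137.8 for siRNA-MEG3 and siRNA-NC, a log2 fold change of 0.44 ± 0.22 (SE, n = 2 samples per group; limma adjusted p = 0.380). The 95% interval ran from 0.896-fold to 2.05-fold. Over 17 alternative settings the log2 fold change of this probe lay between 0.25 and 0.56 and the adjusted p never fell below 0.0541, the lowest fold change coming from the authors' deposited table. The other Trim63 probe (A_55_P2106745) read 4.56 to 7.67 in siRNA-MEG3 cells and 4.48 to 6.54 in siRNA-NC cells, not well above background on any array.

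Trim63 is a known FoxO target in mouse muscle, so its upstream sequence is shown beside those of Trim54, another MuRF gene, and Foxo1, the member with the largest fold change. The RefSeq promoter table (GRCm38.p6) held 5 of the 8 members: Trim63, Trim54, Fbxo30, Foxo1 and Foxo3. The windows are the 250 bases before each RefSeq start, all 3 on the plus strand, at chr4:134314870-134315119 for Trim63, chr5:31116362-31116611 for Trim54 and chr3:52268087-52268336 for Foxo1. Capitals mark matches, on either strand, to the FoxO site GTAAACA (read as TGTTTAC on the other strand) and to the E-box CANNTG, the site bound by myogenic factors such as MyoD and myogenin.
Trim63: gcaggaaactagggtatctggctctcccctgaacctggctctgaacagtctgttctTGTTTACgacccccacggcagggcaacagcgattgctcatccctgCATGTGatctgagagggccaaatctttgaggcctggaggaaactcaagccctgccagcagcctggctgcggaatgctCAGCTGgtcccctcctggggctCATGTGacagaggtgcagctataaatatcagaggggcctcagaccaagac
Trim54: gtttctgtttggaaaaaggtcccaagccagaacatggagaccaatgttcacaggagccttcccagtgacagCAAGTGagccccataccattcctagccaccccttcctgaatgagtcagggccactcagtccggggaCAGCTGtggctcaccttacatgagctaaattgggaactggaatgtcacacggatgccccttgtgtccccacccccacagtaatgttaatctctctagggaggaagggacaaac
Foxo1: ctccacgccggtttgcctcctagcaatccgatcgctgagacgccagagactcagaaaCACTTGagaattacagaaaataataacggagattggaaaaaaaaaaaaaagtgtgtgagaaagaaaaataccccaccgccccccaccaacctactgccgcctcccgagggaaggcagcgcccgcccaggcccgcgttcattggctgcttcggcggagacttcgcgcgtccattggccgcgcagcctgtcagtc
The Trim63 window held 1 FoxO site, from base -194 to -188 counted from the start, and 3 E-boxes. Trim54 held 2 E-boxes and Foxo1 held 1, with no FoxO site in either window, and Fbxo30 and Foxo3 matched neither motif. Of 32851 promoter windows of this length in the table, 3.17% held the FoxO site and 66.2% an E-box. A MEF2 site was in none of the 5 member windows and in 3.20% of all windows. No 2 matches overlapped. These are matches of letters, and binding was not measured.

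**Figure D3:**
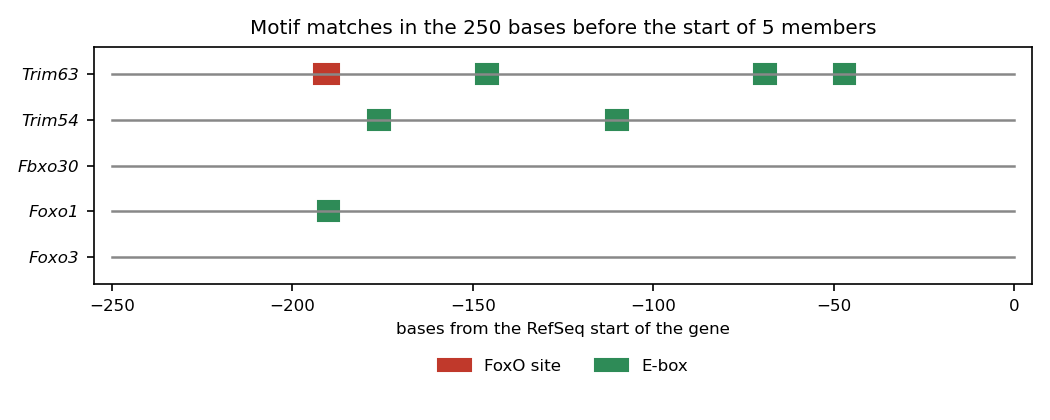
Matches to the FoxO site (red) and the E-box (green) in the 250-base promoter windows of 5 members, with distance from the window's end in bases on the horizontal axis. The windows end at the RefSeq start of the gene, except that of Fbxo30, which lies inside the gene. Trim63 holds the only FoxO site of the 5 windows, at -194 to -188, together with 3 E-boxes.

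The other MuRF genes were too dim to compare. Trim55 encodes MuRF2, which accompanies titin during sarcomere assembly. Its probe (A_55_P2172058) had scaled signals of 5.76, 11.7 and 5.24 on siRNA-MEG3 arrays 1 to 3, against 12.7, 12.1 and 14.3 on siRNA-NC arrays 1 to 3, and only siRNA-NC array 2 was well above background. Every siRNA-MEG3 array read below every siRNA-NC array, by 11.7 against 12.1 at the closest. Trim54 encodes MuRF3, which associates with microtubules and the Z-disc. Its probe (A_55_P2305319) read 6.15, 13.6 and 6.20 with siRNA-MEG3 and 8.40, 7.04 and 8.25 with siRNA-NC, and no array was well above background. Its spot lay in a dark region on siRNA-MEG3 arrays 1 and 3, where it read lowest. No fold change is given for either gene.

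Fbxo32, the SCF subunit that recruits MyoD and the translation factor eIF3f for degradation, gave a fold change close to 1. Scaled signals, each a mean over clean spots, were 608.9, 572.4 and 585.3 on siRNA-MEG3 arrays 1 to 3, against 648.8, 519.7 and 660.3 on siRNA-NC arrays 1 to 3. The siRNA-MEG3 arrays fell between the siRNA-NC arrays, and the groups overlapped. The log2 fold change was 0.00 ± 0.23 (SE, n = 2 samples per group; limma adjusted p = 0.996), with a 95% interval from 0.648-fold to 1.55-fold.

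The repeated printing of the Fbxo32 probe gives its spread between spots as well as between arrays. Between the spots of 1 array the coefficient of variation was 5.60% to 7.48% on siRNA-MEG3 arrays and 2.19% to 3.75% on siRNA-NC arrays. The 8 clean spots of siRNA-NC array 2 ran from 500.7 to 538.3, below all clean spots of siRNA-NC array 1 (628.5 to 667.5) and of siRNA-NC array 3 (631.7 to 700.7). On the common scale the control samples thus differed beyond spot noise, and each siRNA-MEG3 mean lay between them. Before scaling, siRNA-NC array 2 instead read highest (866.3, against 612.5 and 592.5 on siRNA-NC arrays 1 and 3). Whether the difference lies in the sample or in the scaling was not tested. Without siRNA-NC array 2, a refit with 1 siRNA-NC sample, the log2 fold change stood at -0.16. On siRNA-MEG3 arrays 1 and 3, 2 of the 10 spots lay in dark regions, which covered 21.6% and 20.5% of these arrays.

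**Figure D4:**
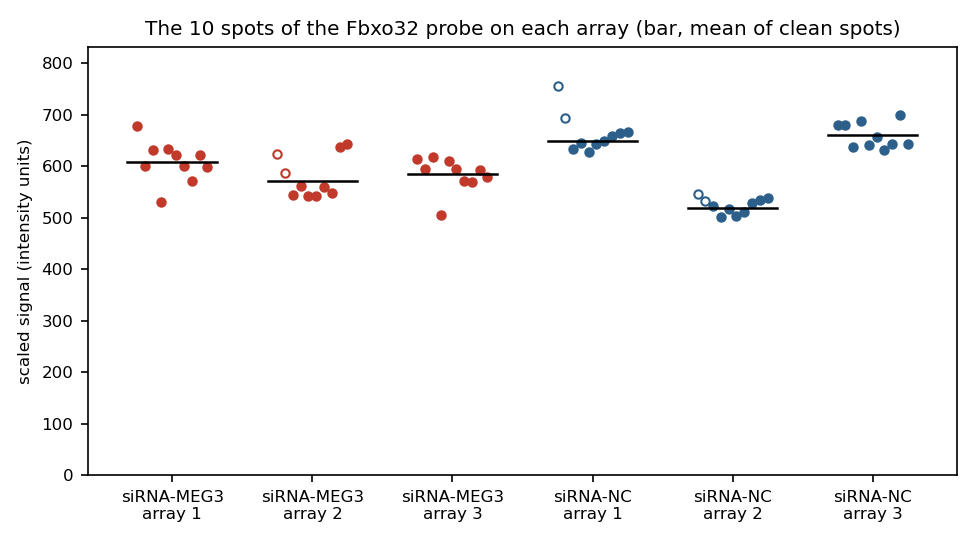
Scaled signal (intensity units, vertical axis from 0) of the 10 spots of the Fbxo32 probe on each siRNA-MEG3 array (red, left) and siRNA-NC array (blue, right). Filled circles are clean spots, open circles were marked as outliers by the scanner software and left out, and each bar is the mean of clean spots. The mean of siRNA-NC array 2, 519.7, is below the siRNA-MEG3 means of 572.4 to 608.9, and those of siRNA-NC arrays 1 and 3, 648.8 and 660.3, are above them.

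Fbxo30 gave a different picture on each of its probes. This gene encodes MUSA1, an F-box protein that is induced in denervated mouse muscle and held down by BMP signalling. Probe A_51_P223036 read 1027, 910.9 and 1000.4 on siRNA-MEG3 arrays 1 to 3, against 597.1, 796.1 and 858.4 on siRNA-NC arrays 1 to 3. The groups did not overlap, but the siRNA-NC arrays were spread, and the log2 fold change was 0.35 ± 0.22 (SE, n = 2 samples per group; limma adjusted p = 0.468). It was 0.17 with normexp background correction and 0.22 without siRNA-NC array 1. Probe A_66_P123804 read 894.0, 820.3 and 895.3 with siRNA-MEG3 and 889.3, 954.3 and 777.6 with siRNA-NC. Here the groups overlapped and the log2 fold change was -0.06 ± 0.22 (limma adjusted p = 0.924). The upper ends of the 95% intervals were 1.91-fold and 1.45-fold.

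Foxo1 had the largest fold changes of the set, and its probes leaned the same way. FoxO1 restrains cell growth and metabolism when insulin and IGF signalling is low, and in myoblasts it is known to act on fusion and differentiation. Probe A_51_P138044 had scaled signals of 6903, 7363 and 6718 on siRNA-MEG3 arrays 1 to 3, against 4038, 4209 and 4077 on siRNA-NC arrays 1 to 3. The arrays of each group lay close together and far from those of the other. The group means of 7081 with siRNA-MEG3 and 4132 with siRNA-NC differed 1.71-fold, a log2 fold change of 0.78 ± 0.21 (SE, n = 2 samples per group). The unadjusted limma p was 0.0174 and the adjusted p 0.176, so the probe did not pass, and 89.9% of all probes had a lower fold change.

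The other Foxo1 probe (A_52_P453884) read 2155, 1998 and 2057 with siRNA-MEG3 and 1550, 1202 and 1528 with siRNA-NC, again with no overlap. Its log2 fold change was 0.59 ± 0.24 (limma adjusted p = 0.289). On siRNA-MEG3 array 2 the spot of A_51_P138044 lay in a dark region, and without that array its log2 fold change was 0.72. Across the 17 alternatives the log2 fold change of A_51_P138044 stayed between 0.70 and 0.83. That of A_52_P453884 ran from 0.41 to 0.63 over 16 alternatives.

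Foxo3, the FoxO factor that drives Fbxo32 and autophagy genes in mouse muscle, leaned the same way. Its probe (A_55_P2150896) read 67.9, 59.5 and 64.7 on siRNA-MEG3 arrays 1 to 3, against 49.6, 40.3 and 42.1 on siRNA-NC arrays 1 to 3. The groups did not overlap. The log2 fold change was 0.55 ± 0.22 (SE, n = 2 samples per group; limma adjusted p = 0.286), and the 95% interval ran from 0.972-fold to 2.20-fold. Over 17 alternatives the log2 fold change lay between 0.37 and 0.63.

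Foxo4, the X-linked FoxO factor, was not well above background on any array. Probe A_55_P2113026 read 4.33 to 7.17 with siRNA-MEG3 and 2.54 to 4.42 with siRNA-NC, and probe A_55_P2150901 read 3.23 to 5.01 with siRNA-MEG3 and 3.35 to 8.43 with siRNA-NC. These signals lie at the dim end of the array, below the lowest clean signal marked well above background on each array (13.7 to 21.8 in processed signal), and no fold change is given.

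Counting all 6 arrays as separate samples, as the labels number them, gave calls that the 4-sample fit did not. Both Foxo1 probes and Foxo3 were then called higher (limma adjusted p = 0.00497, 0.0351 and 0.0284), 3 of 7 member probes, where 16.5% of all probes were called higher and 10% lower. With siRNA-MEG3 arrays 1 and 3 alone averaged, Foxo1 A_51_P138044 passed (limma adjusted p = 0.0405) and no other member probe did, where 4.98% of probes were called higher. With the replicate number as a block over 6 arrays, the same Foxo1 probe passed (limma adjusted p = 0.0379) where 8.34% of probes were called higher. Near-identical arrays counted separately shrink the estimated spread by construction.

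The closest paralogs of the set were measured as well. Fbxo25 is the F-box gene most like Fbxo32. Its probe A_55_P2055844 fell to 51.4, 51.5 and 50.1 on siRNA-MEG3 arrays 1 to 3, against 870.3, 563.3 and 697.1 on siRNA-NC arrays 1 to 3. The log2 fold change was -3.70 ± 0.26 (SE, n = 2 samples per group; limma adjusted p = 0.0240). The other Fbxo25 probe (A_55_P2009285) was marked as non-uniform on siRNA-MEG3 arrays 1 and 3 and could not be fitted. On siRNA-MEG3 array 2 it read 6178, within the 8264, 5575 and 7074 of siRNA-NC arrays 1 to 3, so the low value belongs to 1 probe of the gene. Foxo6, the FoxO gene best known from brain, read 676.8, 666.2 and 657.6 with siRNA-MEG3 and 587.2, 356.0 and 620.5 with siRNA-NC on probe A_52_P589568 (log2 fold change 0.52 ± 0.33; limma adjusted p = 0.473), and 0.14 without siRNA-NC array 2.

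Around the members, calls in the related gene lists were few outside the sarcomeric partners of the ligases, and are read against the 1.37% of all probes called, at which lists of this size hold few calls or none. Of 22 probes for other ligases and deubiquitinases of muscle wasting, 24 for SCF and E2 partners, and 46 for proteasome and ubiquitin genes, none was called in either direction, with median log2 fold changes of -0.03, 0.08 and 0.01. Of 31 probes for FoxO target genes of autophagy, growth arrest and stress, none was called either (median 0.05). Among 34 probes for regulators of FoxO and of the ligase genes, 1 was called higher, that of Myog (myogenin, which also activates Trim63 and Fbxo32 in denervated mouse muscle). It read 3269, 3210.4 and 3218 on siRNA-MEG3 arrays 1 to 3, against 262.8, 322.6 and 266.3 on siRNA-NC arrays 1 to 3 (log2 fold change 3.47 ± 0.22; limma adjusted p = 0.0231).

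Of 11 probes for substrates and sarcomeric partners, 4 were called higher, where 0.998% of all probes were, and none lower. The median log2 fold change was 2.29. Of these 4, Myl1 A_52_P273120 and Myh1 entered the fit through the siRNA-MEG3 arrays alone. Among the probes not called, so did Ttn A_55_P2424042 and Mybpc2. A probe that enters this way is high with siRNA-MEG3 by selection, so the median and the lack of lower calls rest partly on the filter. This list overlaps the muscle genes already known to be high in these samples and is no independent evidence of its direction. Titin (Ttn), the giant protein to which MuRF1 binds, rose by 4.51 ± 0.36 on probe A_55_P2153021 (log2 ± SE, n = 2 samples per group; limma adjusted p = 0.0265). Its second probe (A_55_P2424042), not well above background on any siRNA-NC array, did not pass (limma adjusted p = 0.0617). Myl1, a fast myosin light chain, was at least 64.9-fold higher on probe A_52_P273120, which was not well above background on any siRNA-NC array, and rose by 6.59 ± 0.32 on probe A_51_P416858. Myh1, a fast myosin heavy chain, rose by 5.99 ± 0.26 (limma adjusted p = 0.0187 for each of these 3 probes). On the siRNA-NC side only 1 of 3 arrays had Myh1 well above background, and with normexp background correction its log2 fold change was 3.69. The atrogin-1 substrates in this list differed. Myod1 stood at 2.29 ± 0.43 without passing (limma adjusted p = 0.112), and Eif3f at -0.03 ± 0.23 (limma adjusted p = 0.964). Without siRNA-NC array 2 the log2 fold changes of Fbxo25, Myog and Ttn were -3.93, 3.61 and 4.08. That refit left 1 siRNA-NC sample and called no probe of the whole array, so no call or loss of a call is read from it.

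**Figure D5:**
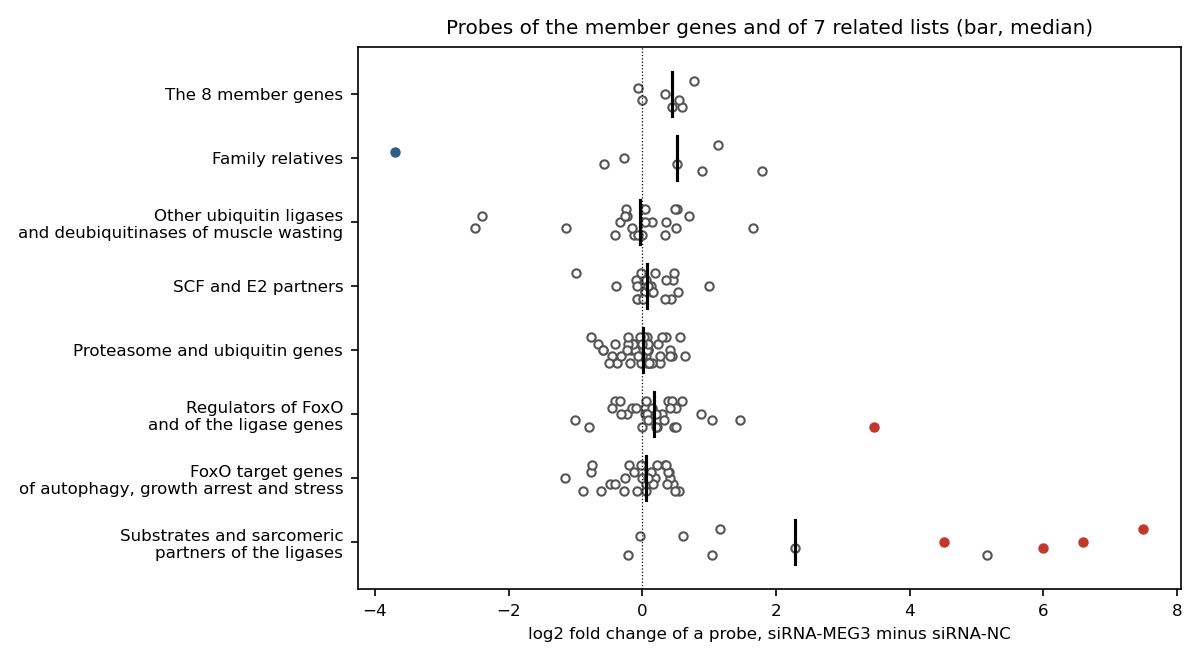
Log2 fold change (siRNA-MEG3 minus siRNA-NC, horizontal axis) of each measured probe of the member genes and of 7 related gene lists. Filled red circles were called higher, filled blue circles lower and open circles not called, and black bars are list medians. The member median is 0.44, and called probes are seen in 3 lists: Fbxo25 among family relatives, Myog among regulators, and 4 probes among sarcomeric partners.

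In the lists without a call, the probe with the smallest p is given. Wwp1, a HECT-type ligase, stood at -2.50 ± 0.31 on probe A_52_P165455 (limma adjusted p = 0.0559) and at 0.04 on its other probe A_55_P2003158. Ube2j1, a ubiquitin-conjugating enzyme that can work with MuRF1, stood at -0.99 ± 0.28 on probe A_51_P498212 (limma adjusted p = 0.186), with -0.39 and -0.10 on its other probes. Psmd7, a lid subunit of the proteasome, stood at 0.63 ± 0.20 (limma adjusted p = 0.218). Bnip3l, a mitophagy receptor gene and FoxO3 target, stood at -0.89 ± 0.31 on probe A_55_P2046943 (limma adjusted p = 0.244), with -0.13 and 0.49 on its others. With normexp background correction Wwp1 A_52_P165455 stood at -1.30 and Ube2j1 A_51_P498212 at -0.23. In the 3 genes with several probes, the named probe was the one furthest from 0.

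Genes with the most similar pattern over the 6 arrays were sought for 1 member of each family, by the root mean square difference between centred log2 values among 26173 probes. For Trim63 these were Pdpk1, Dld and Cln8 (differences of 0.036, 0.045 and 0.052 on the log2 scale). For Fbxo32 they were Tubgcp3, Cd320 and Pgrmc2 (0.015, 0.015 and 0.016), and for Foxo1 Atp11b, Rrm1 and Slbp (0.018, 0.029 and 0.031). Such likeness was common: 1321 probes of named genes came within 0.1 of the Fbxo32 pattern, 243 within 0.1 of Foxo1 and 108 within 0.1 of Trim63.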

How the data were processed

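The scanner files of 6 arrays and 1 table of the whole series were used. Per the file headers, the deposited processed signal intensity of each spot came from Agilent's Feature Extraction software, version 11.0.1.1, background-subtracted and detrended within its array, beside a median spot intensity and a local background intensity. The deposited series table holds the authors' log2 values for 30732 probes, with the same maximum of 18.1826 in every column. The sources used here do not give their between-array step, and 8 of the 12 member probes are in it. Per the labels, repeated probes were averaged and the scaling factor rested on probes of intensity 30 or more.

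Control spots and outlier-marked spots were left out, spots of a probe were averaged, and log2 signals were taken relative to the 75th percentile of each array. RefSeq accessions (GRCm38.p6 table) named 27234 of 39429 probes. A probe entered the fit if 1 group or both had it well above background throughout. Groups were compared per probe with limma 3.58.1 in R 4.3.3, 2-sided, with Benjamini-Hochberg adjustment over 26348 probes (residual degrees of freedom 2, prior 2.31); the fit was tested on simulated data. Dark regions are blocks of 30 by 17 spots with over 5% of signals down by more than 4-fold against siRNA-NC. They were sought on siRNA-MEG3 arrays only and covered 21.6%, 5.87% and 20.5% of arrays 1 to 3. Being defined by the contrast between the groups, they are no independent mark of damage. The members, lists and tests were chosen with earlier results of these data known. Named were all members, the called genes of each list (at most 4, by p) or else the probe with the smallest p, the closest paralogs, and 3 genes of similar pattern for Trim63, Fbxo32 and Foxo1. Alternatives were other ways of counting arrays, a replicate block, scaling, background correction, the filter, outlier spots, 1 probe per gene, the authors' table and leaving out each array. The number of samples limits the precision.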

Additional observations from a re-analysis of the deposited data

How the results depend on the processing

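Over the alternatives run, 17 at most per result, Trim63 A_52_P517224, Fbxo30 A_51_P223036, both Foxo1 probes and Foxo3 kept a positive log2 fold change, and no member probe was called lower. With 6 arrays as 6 samples, 4330 probes were called higher and 2617 lower, 3 of them members and higher, and the pathway lists had 34 higher and 9 lower. With 5 samples the counts were 1311 higher and 942 lower, 1 member higher, and 11 higher and 3 lower in the lists. These fits count near-identical arrays as independent. With no filter on dim probes 0 were called higher and 0 lower by limma, in the lists too (5281 probes at an unadjusted p under 0.05), the cause not tested. The factor described in the labels left 65 lower. Quantile normalization, normexp and the authors' deposited table each gave 2 lower in the lists.

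Leaving out 1 array gave 0 to 999 probes higher, 0 to 1740 lower, and in the lists 0 to 10 higher and 0 to 6 lower. The zeros came without siRNA-NC array 2 and the highest counts without siRNA-MEG3 array 2. Each of these refits left 1 sample in that group, so their counts are not read as results. Members stayed at 0, which was fixed in the refit where no probe at all was called.

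Fbxo32 turned negative with 6 samples (-0.042), 5 samples (-0.052), the labels' factor (-0.052), normexp (-0.014), outlier spots kept (-0.080) and the authors' deposited table (-0.077), and ran from -0.163 to 0.034 with 1 array left out. Fbxo30 A_66_P123804 was 0.0051 with normexp and ran from -0.105 to 0.043 with 1 array left out. No such value passed, and the cause was not tested. Normexp moved the median of all probes to 0.17, against 0.05.

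Deviations from the group mean had r = -0.0288, -0.0382 and -0.0311 between same-numbered arrays, and -0.0471 to 0.0451 between differently numbered ones. With arrays 1 and 3 of each group alike, these values mostly restate array 2 against arrays 1 and 3. They cannot show whether arrays 1 or 3 are paired. The numbers were not taken as pairs in the main fit. The replicate block with 4 samples gave 183 higher, 62 lower and 0 members. The replicate block with 6 samples gave 2184 higher, 1447 lower, 1 member higher (Foxo1 A_51_P138044), 14 higher and 6 lower in the lists, and -0.042 for Fbxo32. Signal close to background left Trim55, Trim54 and Foxo4 unmeasured.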

Other observations

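Some regulators and ligases outside the members had sizeable fold changes that did not pass, and they were picked after their values were seen. Trim36, a relative of the MuRF genes, read 49.9, 47.6 and 56.6 on siRNA-MEG3 arrays 1 to 3, against 13.7, 14.7 and 14.8 on siRNA-NC arrays 1 to 3 (log2 fold change 1.80 ± 0.21, limma adjusted p = 0.0512), with 2 of the siRNA-NC values not well above background. Prkaa2, a catalytic subunit gene of the energy sensor AMPK, read 91.7, 71.6 and 86.5 with siRNA-MEG3 and 28.9, 35.7 and 18.9 with siRNA-NC (1.47 ± 0.31, limma adjusted p = 0.132). Klf15, a glucocorticoid-induced factor that promotes Trim63 and Fbxo32 in muscle, read 309.2, 259.7 and 294.5 with siRNA-MEG3 and 679.3, 457.7 and 694.4 with siRNA-NC (-1.002 ± 0.29, limma adjusted p = 0.196). Ubr2, an N-end rule ligase gene, read 669.1, 698.3 and 648.3 with siRNA-MEG3 and 4577, 2689 and 4921 with siRNA-NC (-2.40 ± 0.35, limma adjusted p = 0.0735).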
